A study of Mus musculus with 12 samples.

Results

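The T cell checkpoint and costimulatory genes described here are 10 genes chosen by symbol, namely Cd274, Pdcd1lg2, Pdcd1, Ctla4, Lag3, Havcr2, Icos, Cd80, Cd86 and Btla. All 10 had a probe set with a single gene symbol, among 18193 such genes on the array, and all 10 passed the filter on dim probe sets that left 12760 genes for testing. Their signals were measured in whole liver RNA of 12 BALB/c mice, 1 mouse per array and 3 mice per group, in a study of acute autoimmune hepatitis in mice without transforming growth factor beta 1 (Tgfb1). The group labelled wild type kept Tgfb1 and interferon gamma (Ifng), and TGFB KO lacked Tgfb1. INFko TGFB+ (spelled so in the labels) lacked Ifng and kept Tgfb1, and IFNko TGFB1 KO lacked both genes. The labels give no age, do not say whether INFko TGFB+ mice carried 1 or 2 intact copies of Tgfb1, and name no treatment.

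A T cell needs a signal through its antigen receptor and a second, costimulatory signal to become fully active. CD80 and CD86 on antigen-presenting cells give that second signal through CD28, and the T cell receptor CTLA-4 binds the same ligands and restrains the response. PD-1, encoded by Pdcd1, is an inhibitory receptor of activated T cells whose ligands are PD-L1 (Cd274) and PD-L2 (Pdcd1lg2), and interferon gamma is a known inducer of PD-L1. LAG-3, TIM-3 (Havcr2) and BTLA are further inhibitory receptors, while ICOS is a costimulatory relative of CD28. In the liver the inhibitory receptors and the PD-1 ligands are known for limiting damage by T cells. Mice without Tgfb1 are known for early, lymphocyte-driven inflammation of several organs.

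The 250 bases before the start site were taken from RefSeq (GRCm38.p6) for the 7 members with an entry. Those of the PD-1 receptor and its ligands are shown. Of the 7, Cd274 and Pdcd1lg2 fell in the mice without both genes against TGFB KO, and Pdcd1 and the others were not called. Capitals mark matches to an interferon regulatory factor core, AANNGAAA on either strand.
Cd274, chr19:29367188-29367437 (+ strand): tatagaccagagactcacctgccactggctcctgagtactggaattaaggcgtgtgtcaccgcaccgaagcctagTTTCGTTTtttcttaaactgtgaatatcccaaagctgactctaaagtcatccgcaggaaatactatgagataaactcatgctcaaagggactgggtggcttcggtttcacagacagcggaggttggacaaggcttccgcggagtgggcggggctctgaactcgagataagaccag
Pdcd1lg2, chr19:29410669-29410918 (+ strand): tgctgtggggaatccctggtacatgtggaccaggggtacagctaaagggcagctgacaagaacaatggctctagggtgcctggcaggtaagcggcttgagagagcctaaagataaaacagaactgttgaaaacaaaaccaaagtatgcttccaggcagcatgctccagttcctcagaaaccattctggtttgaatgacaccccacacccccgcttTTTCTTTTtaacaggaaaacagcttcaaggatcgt
Pdcd1, chr1:94052554-94052803 (- strand): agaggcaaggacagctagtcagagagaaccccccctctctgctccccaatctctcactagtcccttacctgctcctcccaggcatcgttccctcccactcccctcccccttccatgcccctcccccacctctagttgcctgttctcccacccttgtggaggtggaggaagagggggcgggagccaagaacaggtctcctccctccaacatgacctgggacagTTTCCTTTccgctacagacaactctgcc
The match lies at -175 from the start site in Cd274, at -35 in Pdcd1lg2 and at -28 in Pdcd1. It is a common word, held by 21.3% of 32851 promoter windows of this length. Of the 7 members' windows 3 held it, which are the ones shown. The longer interferon-stimulated response element, which contains that core (2.98% of windows), the GAS element TTCNNNGAA (7.02%) and the T-box word TCACACC (3.33%) had no match in any of the 7 members' windows. The NFAT word TGGAAA (18.6% of windows) matched in Ctla4 at -144, and the AP-1 word TGANTCA (6.75%) matched in Havcr2 at -200 and in Cd80 at -42. Both strands were searched for every word, and a match is a description of letters only. Cd274 and Pdcd1lg2 are neighbours on the chromosome, as are Cd28, Ctla4 and Icos.

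All 12 arrays had been scaled to a trimmed mean signal of 150, yet the median of IFNko TGFB1 KO 1 was 61.3 where the other 11 spanned 33.8 to 42.6. Its rank correlations with those arrays were also lower, at 0.754 to 0.809, against 0.816 to 0.912 among the others, and the members' calls and main counts are also given without it. The brighter of 2 Tgfb1 probe sets fell in both Tgfb1 comparisons, by log2 fold changes of -1.82 ± 0.44 and -2.04 ± 0.44 (SE, adjusted p = 0.0105 and 0.00557, limma with Benjamini-Hochberg adjustment). The other had mean signals of 41.8 ± 14.0 (SD) in wild type, 43.4 ± 7.35 in TGFB KO, 37.1 ± 7.39 in INFko TGFB+ and 54.9 ± 38.9 in IFNko TGFB1 KO, and so was not lower in either group without Tgfb1. Ifng gave a mean signal of 127 ± 64.5 (SD, n = 3) in TGFB KO and 60.9 ± 20.5 in IFNko TGFB1 KO, against 18.4 ± 10.8 in wild type and 5.36 ± 3.72 in INFko TGFB+. The sources used here do not place this probe set relative to the disrupted part of Ifng, and it therefore does not check the Ifng labels. Below, a log2 fold change is a difference between group means of quantile-normalized log2(signal + 16), followed by its standard error, with n = 3 arrays per group. A gene is said to rise or fall where its limma p, adjusted over 12760 genes, is under 0.05, and the tests are two-sided. These p-values rest on a spread between mice that is pooled over all 4 groups of 3 and moderated across genes by limma. Signals are given as deposited, and a level is compared between groups for 1 probe set at a time, never between genes.

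Most of the checkpoint genes were higher in the livers without Tgfb1, with or without Ifng. In TGFB KO against wild type 8 of the 10 rose, all but Icos and Cd80, and none fell. Across all genes tested 24.1% were called in that comparison and 12.2% rose (1553 higher and 1524 lower, or 1447 and 890 with arrays centred on their median in place of quantile normalization). In IFNko TGFB1 KO against INFko TGFB+ 8 rose as well, all but Pdcd1lg2 and Cd80, where 25.8% of all genes were called and 12.7% rose (1618 higher and 1673 lower, or 986 and 1864 with median centring). The median log2 fold change of the 10 genes was 1.55 in the first comparison and 1.63 in the second, against -0.06 and -0.01 over all genes tested. The deposited signals of all 3 knockout arrays lay above all 3 control arrays for 7 members in the first comparison, where 19.1% of all genes did so and 20.9% lay below, and for all 10 in the second, where 24.9% did. Without the array IFNko TGFB1 KO 1, the count in the second comparison was again 8, with log2 fold changes of the called members from 1.05 for Btla to 2.425 for Pdcd1, and with Ctla4 at 1.93. With a pseudocount of 1 in place of 16 the members' medians were 2.25 and 2.18, and with 64 they were 0.719 and 0.843. The filter used the mean over all 12 arrays, so a gene could pass it through the groups where it was high. Pdcd1 (4.734 and 4.265), Lag3 (4.815 and 4.564) and Havcr2 (4.642 and 5.03) had mean log2 values under its level of 5.246 in wild type and INFko TGFB+. Cd274 (5.015), Pdcd1lg2 (4.973) and Ctla4 (4.756) lay under it in INFko TGFB+ only. Their tests are thus not independent of the filter. The same filter was applied to the other gene lists described below, so their tests and counts are not independent of it either.

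**Figure D1:**
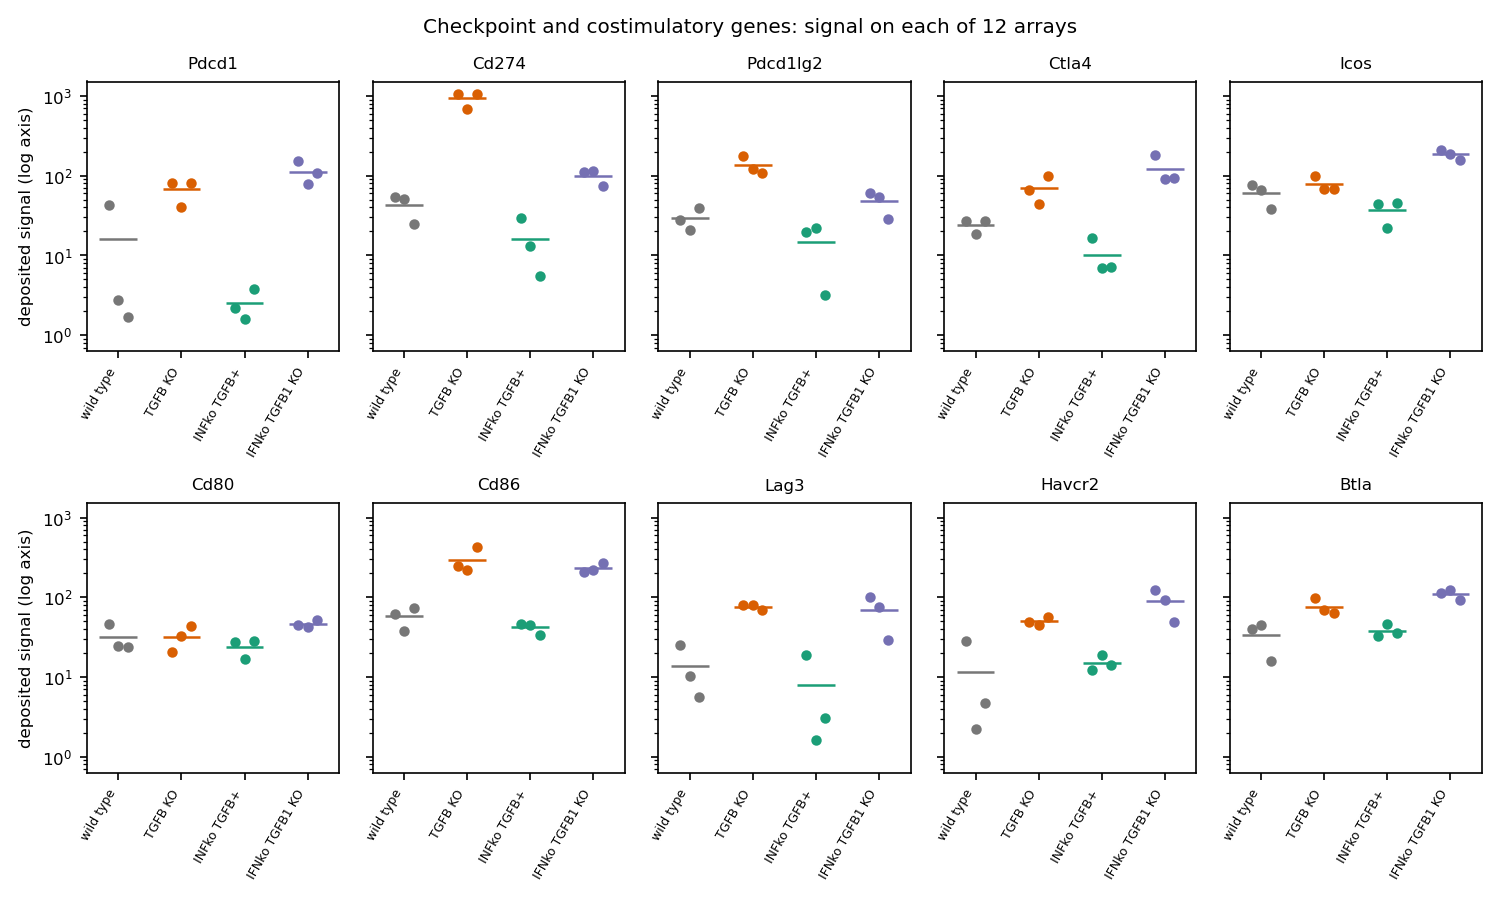
Deposited signal (log axis) of the 10 genes on each of the 12 arrays, by group, with points for arrays and a bar for each group's mean (n = 3). Cd274 reached 686 to 1067 in TGFB KO and 73.4 to 115 in IFNko TGFB1 KO. For Cd80 the TGFB KO arrays overlapped wild type, and the IFNko TGFB1 KO arrays lay above INFko TGFB+.

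Cd274, the gene of PD-L1, had the largest rise of the 10 genes after Tgfb1 loss in mice with Ifng. Its signals were 53.9, 50.8 and 24.7 in wild type and 1067, 686 and 1062 in TGFB KO. In the mice labelled as lacking Ifng they were 29.4, 13 and 5.52 with Tgfb1 and 112, 115 and 73.4 without it. Each group without Tgfb1 lay above its control without overlap, and TGFB KO lay above every other array. The log2 fold change was 4.005 ± 0.30 in TGFB KO against wild type (adjusted p = 6.32e-06) and 1.66 ± 0.30 in IFNko TGFB1 KO against INFko TGFB+ (adjusted p = 0.00217). Both calls held in every alternative processing tried.

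Pdcd1lg2 encodes PD-L2, the second ligand of PD-1, which is known mainly from dendritic cells and macrophages. Signals were 27.7, 20.8 and 39.9 in wild type and 174, 122 and 108 in TGFB KO. They were 19.5, 21.96 and 3.20 in INFko TGFB+ and 61.0, 54.2 and 28.4 in IFNko TGFB1 KO. The TGFB KO arrays were the highest of the 12, and the IFNko TGFB1 KO arrays lay above INFko TGFB+ but overlapped wild type. The rise in TGFB KO was 1.75 ± 0.30 (adjusted p = 0.00159), while the difference between the Ifng-deficient groups was 0.82 ± 0.30 and missed the threshold (adjusted p = 0.0669). With the deposited scaling in place of quantile normalization that difference was 1.07 and passed (adjusted p = 0.0224).

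Pdcd1, the receptor of both ligands, had its highest mean signal in the mice without Ifng and Tgfb1, whose arrays overlapped those of TGFB KO. Signals were 43.5, 2.80 and 1.68 in wild type and 81.4, 40.8 and 80.0 in TGFB KO. They were 2.20, 1.59 and 3.84 in INFko TGFB+, all under the median of every array, and 152, 78.0 and 108 in IFNko TGFB1 KO. The single wild type array at 43.5 overlapped the lowest TGFB KO array, and the Ifng-deficient groups did not overlap. The log2 fold change was 1.65 ± 0.39 in TGFB KO against wild type (adjusted p = 0.00984) and 2.59 ± 0.39 in IFNko TGFB1 KO against INFko TGFB+ (adjusted p = 0.000813). Without wild type 1, the array at 43.5, the first value was 2.18.

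Of the ligands shared by CD28 and CTLA-4, Cd86 rose in both Tgfb1 comparisons and Cd80 was called in neither. For Cd86 the signals were 62.4, 37.5 and 73.0 in wild type, 247, 220 and 423 in TGFB KO, 46.6, 45.4 and 33.9 in INFko TGFB+, and 206, 217 and 265 in IFNko TGFB1 KO. All 6 arrays without Tgfb1 lay above all 6 with it, and Cd86 rose by 2.01 ± 0.27 with Ifng intact (adjusted p = 0.000331) and by 1.93 ± 0.27 without Ifng (adjusted p = 0.000554). For Cd80 the signals were 46.1, 24.6 and 23.8 in wild type, 20.5, 32.6 and 43.0 in TGFB KO, 27.1, 16.9 and 28.3 in INFko TGFB+, and 44.6, 42.3 and 51.8 in IFNko TGFB1 KO. The Cd80 log2 fold changes were 0.09 ± 0.25 (adjusted p = 0.831) and 0.40 ± 0.25 (adjusted p = 0.271), and the first turned negative when TGFB KO 3 (-0.07) or wild type 2 (-0.0059) was left out. Whether the effects on Cd80 and Cd86 differ was not tested.

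Ctla4 and Icos are receptors of the CD28 family that T cells make after activation. Ctla4 signals were 27.0, 18.6 and 27.0 in wild type, 67.0, 43.6 and 98.1 in TGFB KO, 16.5, 6.97 and 7.15 in INFko TGFB+, and 180, 91.7 and 92.6 in IFNko TGFB1 KO. Each group without Tgfb1 lay above its control, and the groups without Tgfb1 overlapped each other. Ctla4 rose by 1.13 ± 0.28 in TGFB KO against wild type (adjusted p = 0.0125) and by 2.20 ± 0.28 in IFNko TGFB1 KO against INFko TGFB+ (adjusted p = 0.000307). Without TGFB KO 3, the highest array of its group, the first change was 0.90 and missed the threshold (adjusted p = 0.0511).

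Icos was called in the Ifng-deficient pair and not in the pair with Ifng. Its signals were 76.2, 66.9 and 38.8 in wild type and 99.0, 67.5 and 68.1 in TGFB KO, which overlapped. They were 43.8, 22.2 and 46.0 in INFko TGFB+ and 213, 186 and 155 in IFNko TGFB1 KO, the 3 highest of the 12. The difference was 0.30 ± 0.24 with Ifng intact (adjusted p = 0.415), and Icos rose by 1.77 ± 0.24 without Ifng (adjusted p = 0.000441). The array carries other probe sets of Icos that read differently, as described below.

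CD28 itself, the activating partner of CD80 and CD86, rose in both comparisons, by 1.30 ± 0.25 (adjusted p = 0.00312) and 2.12 ± 0.25 (adjusted p = 0.0002). Its mean signal was 13.6 ± 10.5 (SD) in wild type, 49.7 ± 8.83 in TGFB KO, 15.9 ± 5.83 in INFko TGFB+ and 140 ± 17.0 in IFNko TGFB1 KO. Icosl, the ligand of ICOS, passed the test in neither, with log2 fold changes of 0.20 ± 0.35 and 0.69 ± 0.35.

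Lag3, Havcr2 and Btla, inhibitory receptors outside the CD28 and PD-1 pairs, rose in both Tgfb1 comparisons. LAG-3 binds MHC class II molecules. The Lag3 signals were 24.9, 10.2 and 5.63 in wild type, 79.9, 80.0 and 69.2 in TGFB KO, 19.1, 1.62 and 3.04 in INFko TGFB+, and 102, 76.4 and 29.4 in IFNko TGFB1 KO. Neither Tgfb1-deficient group overlapped its control, and the array IFNko TGFB1 KO 3 was well below the other 2 of its group. Lag3 rose by 1.75 ± 0.31 (adjusted p = 0.00218) and 1.60 ± 0.31 (adjusted p = 0.00353).

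Havcr2 encodes TIM-3, carried by effector T cells and also by myeloid cells. Its signals were 27.9, 2.21 and 4.65 in wild type, 48.3, 45.1 and 55.8 in TGFB KO, 12.1, 18.9 and 14.0 in INFko TGFB+, and 124, 92.7 and 49.5 in IFNko TGFB1 KO. The 6 arrays without Tgfb1 were above the 6 with it. The rises were 1.45 ± 0.29 (adjusted p = 0.00374) and 1.49 ± 0.29 (adjusted p = 0.00323).

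Btla encodes the lymphocyte receptor of HVEM (Tnfrsf14). The signals were 40.04, 45.5 and 16.1 in wild type, 96.6, 68.5 and 63.9 in TGFB KO, 32.5, 45.8 and 35.5 in INFko TGFB+, and 114, 123 and 92.9 in IFNko TGFB1 KO. Again the 6 arrays without Tgfb1 lay above the 6 with it, though the rises were modest, at 0.97 ± 0.24 (adjusted p = 0.0117) and 0.97 ± 0.24 (adjusted p = 0.0107). Without TGFB KO 1 the first was 0.83 and missed the threshold (adjusted p = 0.0519). In this bulk tissue RNA, more cells of a type and more RNA per cell cannot be told apart.

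Of the ligands of these receptors, some rose and others fell. The MHC class II genes H2-Ab1, H2-Aa and H2-Eb1 rose in TGFB KO by 4.53 ± 0.27, 4.73 ± 0.31 and 5.35 ± 0.36, and in IFNko TGFB1 KO against INFko TGFB+ by 1.77 ± 0.27, 2.02 ± 0.31 and 1.55 ± 0.36. Lgals3, the gene of galectin-3, another reported LAG-3 ligand, rose by 4.73 ± 0.24 and 4.47 ± 0.24. Fgl1, a LAG-3 ligand made by hepatocytes, rose by 1.85 ± 0.33 with Ifng intact (adjusted p = 0.00211) and differed by 0.93 ± 0.33 without it (adjusted p = 0.0589). Of the TIM-3 ligands, Ceacam1 fell by 0.94 ± 0.30 on the log2 scale (adjusted p = 0.0401) and by 1.66 ± 0.30 (adjusted p = 0.00223). Lgals9 fell by 0.97 ± 0.25 on the log2 scale in the Ifng-deficient pair (adjusted p = 0.013) and stood at -0.61 ± 0.25 with Ifng intact (adjusted p = 0.0973). The first Ceacam1 call was lost on leaving out wild type 1 (-0.66, adjusted p = 0.143), wild type 3 (-0.90, 0.0942), TGFB KO 1 (-0.99, 0.0793), TGFB KO 2 (-1.02, 0.0657) or TGFB KO 3 (-0.81, 0.125), and with the replicate number as a block (adjusted p = 0.0547). Tnfrsf14 rose by 1.61 ± 0.45 with Ifng (adjusted p = 0.0224), a call lost without wild type 1 (adjusted p = 0.0561), wild type 2 (0.0739), TGFB KO 1 (0.0784) or TGFB KO 2 (0.072), and differed by 0.94 ± 0.45 without Ifng (adjusted p = 0.148). Of the 13 partner genes tested, 8 rose and 1 fell in the first comparison and 6 rose and 2 fell in the second. Across all genes tested 12.2% rose and 11.9% fell in the first, and 12.7% and 13.1% in the second.

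**Figure D2:**
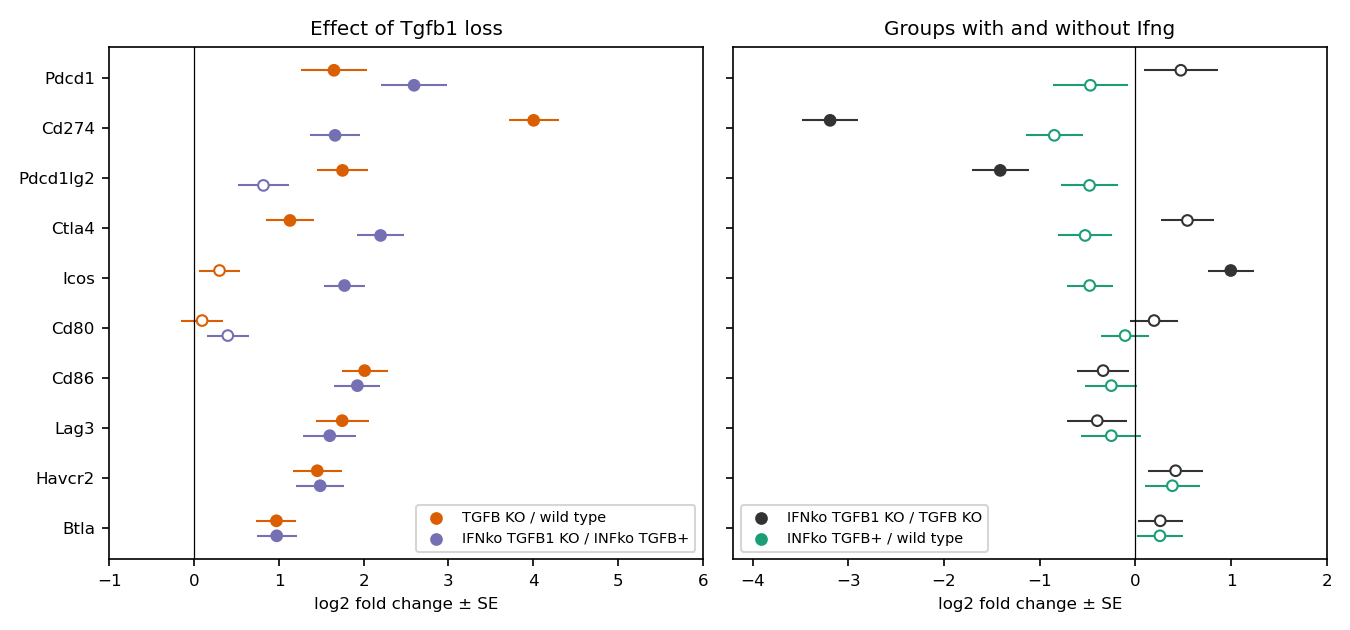
Log2 fold changes of the 10 genes with standard errors (n = 3 arrays per group), for both Tgfb1 comparisons on the left and for the groups with and without Ifng on the right, with filled points for genes past the threshold. On the left 8 members are filled in each comparison, and on the right Cd274 (-3.19), Pdcd1lg2 (-1.41) and Icos (1.00) are filled between the groups without Tgfb1, and no gene is filled between the groups with it.

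Both PD-1 ligands were lower where Ifng was missing as well as Tgfb1. In IFNko TGFB1 KO against TGFB KO, Cd274 fell by 3.19 ± 0.30 on the log2 scale (adjusted p = 0.000123) and Pdcd1lg2 by 1.41 ± 0.30 (adjusted p = 0.0206), without overlap of the deposited signals. Icos rose by 1.00 ± 0.24 (adjusted p = 0.0352), also without overlap, and the other 7 members were not called. Over all genes 5.36% were called, with 2.54% higher and 2.82% lower (324 and 360 genes, or 99 and 386 with median centring). Without IFNko TGFB1 KO 1 the genes called were 419 in place of 684. Signals did not overlap for 14.1% of all genes in the higher and for 8.53% in the lower direction. The median of the 10 genes was 0.23 and that of all genes 0.02. These values share the TGFB KO and IFNko TGFB1 KO arrays with the Tgfb1 comparisons.

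The call of Cd274 held in every alternative, and it was -3.23 without the array IFNko TGFB1 KO 1 (adjusted p = 0.000617), when it was the only member called. Those of Pdcd1lg2 and Icos did not. Pdcd1lg2 missed the threshold without TGFB KO 1 (-1.24, adjusted p = 0.0886), TGFB KO 2 (-1.46, 0.057), IFNko TGFB1 KO 1 (-1.42, 0.0521) or IFNko TGFB1 KO 3 (-1.27, 0.0545). Icos missed it without TGFB KO 1, 2 or 3 (adjusted p = 0.0542, 0.124 and 0.0932) and without IFNko TGFB1 KO 1 or 2 (0.103 and 0.0576), and kept it without IFNko TGFB1 KO 3 (0.0456). Among the partners, Cd28 rose by 1.09 ± 0.25 (adjusted p = 0.0282), a call lost without any of TGFB KO 1 (0.061), 2 (0.104) or 3 (0.0725) or IFNko TGFB1 KO 1 (0.0756) or 3 (0.0546). H2-Ab1, H2-Aa and H2-Eb1 fell by 3.10 ± 0.27, 3.07 ± 0.31 and 4.02 ± 0.36 on the log2 scale.

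Pdcd1, Ctla4, Havcr2 and Btla had differences of 0.48 ± 0.39, 0.54 ± 0.28, 0.42 ± 0.29 and 0.26 ± 0.24 in that comparison, and Lag3 and Cd86 of -0.40 ± 0.31 and -0.34 ± 0.27. None of these passed (adjusted p from 0.294 to 0.582), and the arrays of the 2 groups overlapped for each. Cd80 differed by 0.20 ± 0.25.

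Whether the effect of Tgfb1 loss itself depended on Ifng was tested as the effect in the Ifng-deficient pair minus that in the Ifng-intact pair. Cd274 was the only member called, at -2.34 ± 0.42 (adjusted p = 0.0258), where 0.87% of all genes were called and 0.627% were lower (31 higher and 80 lower, or 9 and 101 with median centring). The adjusted p rose to 0.0568 without wild type 3, to 0.0781 and 0.0737 without TGFB KO 1 or 3, to 0.0588 and 0.0746 without INFko TGFB+ 1 or 2, and to 0.0513 with the deposited scaling, while the difference stayed between -2.58 and -2.06 over all arrays left out in turn. Pdcd1lg2 differed by -0.93 ± 0.42 (adjusted p = 0.422). Icos was at 1.47 ± 0.34 (adjusted p = 0.0812), Ctla4 at 1.07 ± 0.39 (adjusted p = 0.309) and Pdcd1 at 0.95 ± 0.55 (adjusted p = 0.55), and none of these was called. Icos passed in 3 alternatives, including at 1.69 without wild type 3 (adjusted p = 0.0488), while another of its probe sets gave 0.11 ± 0.41. Lag3, Havcr2, Cd86 and Btla had differences of -0.15 ± 0.44, 0.03 ± 0.41, -0.09 ± 0.38 and 0.0035 ± 0.33, which took the other sign in some alternatives, and Cd80 of 0.30 ± 0.35.

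In INFko TGFB+ against wild type, the comparison of livers that keep Tgfb1, no member was called. By limma no gene was called at all (0 of 12760, or 0%), against 650 genes and 1 member, Cd274, at an unadjusted p under 0.05. Cd274 was at -0.85 ± 0.30 (adjusted p = 0.91). Only Ctla4 had non-overlapping signals, lower in INFko TGFB+, where 7.09% of all genes did so in that direction and 6.34% in the other. The median of the 10 genes was -0.36 and that of all genes 0.003.

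**Figure D3:**
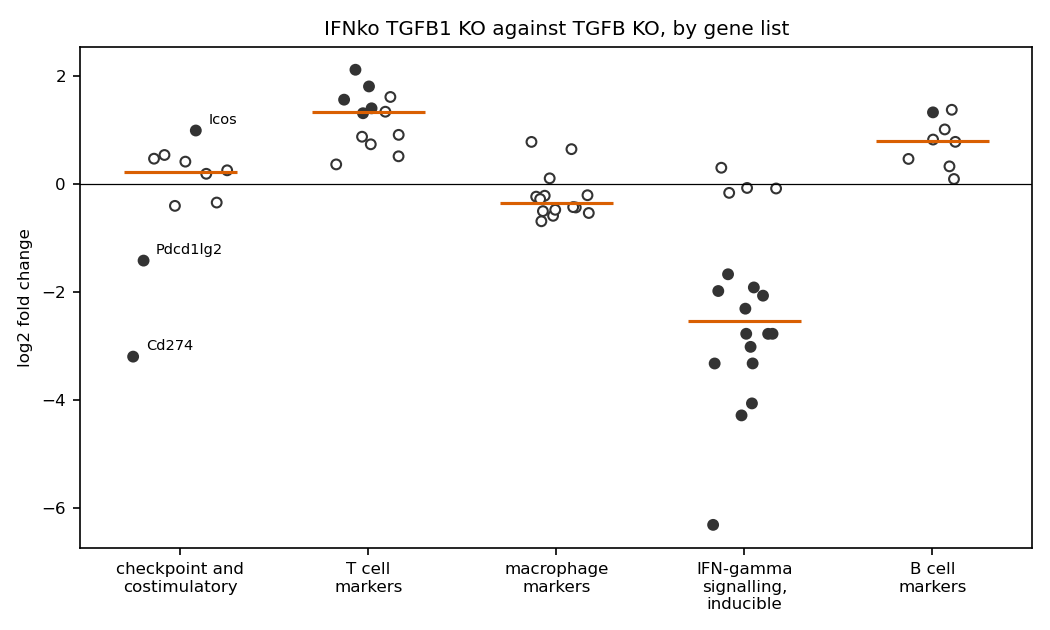
Log2 fold changes of single genes in IFNko TGFB1 KO against TGFB KO for the 10 checkpoint genes and for marker and pathway lists, with bars for medians and filled points for genes past the threshold. Cd274 is at -3.19 and Pdcd1lg2 at -1.41, the IFN-gamma list has a median of -2.53 and the T cell markers one of 1.33.

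Most of the T cell and macrophage markers rose in both Tgfb1 comparisons as well. The summed signal of 12 T cell markers ranged from 230 to 305 in wild type, from 1003 to 1329 in TGFB KO, from 196 to 316 in INFko TGFB+ and from 2658 to 4766 in IFNko TGFB1 KO, and none of the markers was listed at 0. Of these 12 genes 10 rose in the first and 11 in the second Tgfb1 comparison, and 5 rose in IFNko TGFB1 KO against TGFB KO with a list median of 1.33, where 2.54% of all genes rose. Those 5 became 3, 2 and 3 without TGFB KO 1, 2 and 3, and stayed at 5 in number without IFNko TGFB1 KO 1. They became 1 with a pseudocount of 1 and 8 with a pseudocount of 64. Cd3g, a chain of the T cell receptor complex, rose by 2.13 ± 0.28 and 4.14 ± 0.28. The summed signal of 14 macrophage and Kupffer cell markers was 8591 to 10600 in wild type, 52870 to 56330 in TGFB KO, 8649 to 8662 in INFko TGFB+ and 38980 to 55490 in IFNko TGFB1 KO. All 14 rose in both Tgfb1 comparisons and none was called between the groups without Tgfb1, where the list median was -0.35. That count of 0 was not kept in 6 alternatives and reached 4 with an intensity trend. Hepatocyte markers summed to 221200 to 228200, 159300 to 196500, 192100 to 236000 and 118700 to 185700 in the same order of groups. Of the other cell types, in the first and second Tgfb1 comparison, 2 and 3 of 3 tested NK cell markers rose, 1 and 2 of 3 regulatory T cell markers, 2 and 2 of 5 dendritic cell markers, 6 and 4 of 6 neutrophil and monocyte markers, 0 and 1 of 8 B cell markers, and 2 and 4 of 9 endothelial markers, where 12.2% and 12.7% of all genes rose. Of the endothelial markers Clec4g, a lectin of sinusoidal cells, fell by 0.64 ± 0.17 on the log2 scale in TGFB KO, and 1 and 4 of 11 hepatocyte markers fell, where 11.9% and 13.1% of all genes did. These small counts depended on single arrays. In TGFB KO the neutrophil and monocyte count went from 6 to 3 without TGFB KO 2, the endothelial calls from 3 to 1 without wild type 2 or TGFB KO 2, and the NK cell count from 2 to 1 without wild type 2, wild type 3, TGFB KO 2 or TGFB KO 3. The regulatory T cell count there went from 1 to 0 without wild type 1, wild type 3, TGFB KO 1 or TGFB KO 3. Of the other regulatory T cell markers, Foxp3, Ikzf4, Il2ra and Il10 were below the filter and not tested. In wild type and TGFB KO the mean signals were 19.7 and 2.98 for Foxp3 and 31.4 and 10.45 for Ikzf4. They were 19.5 and 17.4 for Il2ra and 12.6 and 50.2 for Il10. INFko TGFB+ and IFNko TGFB1 KO had 16.3 and 17.6, 20.6 and 27.7, 12.5 and 35.7, and 10.5 and 21.7, in that order. In the Ifng-deficient pair the endothelial count went from 4 to 2 without any INFko TGFB+ array or without IFNko TGFB1 KO 1 or 2, and the hepatocyte count from 4 to 2 without any INFko TGFB+ array or without IFNko TGFB1 KO 2. The neutrophil and monocyte count there went from 4 to 2 without INFko TGFB+ 2 or IFNko TGFB1 KO 2, and the B cell count from 1 to 2 without IFNko TGFB1 KO 1 and to 0 without any other array of that pair. The part of these cell markers in the changes of the checkpoint genes was not tested.

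Genes of interferon gamma signalling were also high in TGFB KO. Of 18 tested 16 rose in TGFB KO with a median of 2.49, against 8 higher and 2 lower with a median of 0.68 in IFNko TGFB1 KO against INFko TGFB+. Across all genes 12.2% rose in the first, and 12.7% rose and 13.1% fell in the second. In IFNko TGFB1 KO against TGFB KO 14 of the 18 fell, with a median of -2.53, where 2.82% of all genes fell. The chemokine gene Cxcl9 and the guanylate-binding protein gene Gbp2 rose by 4.64 ± 0.29 and 3.8 ± 0.18 in TGFB KO and differed by 0.13 and 0.38 in the Ifng-deficient pair.

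**Figure D4:**
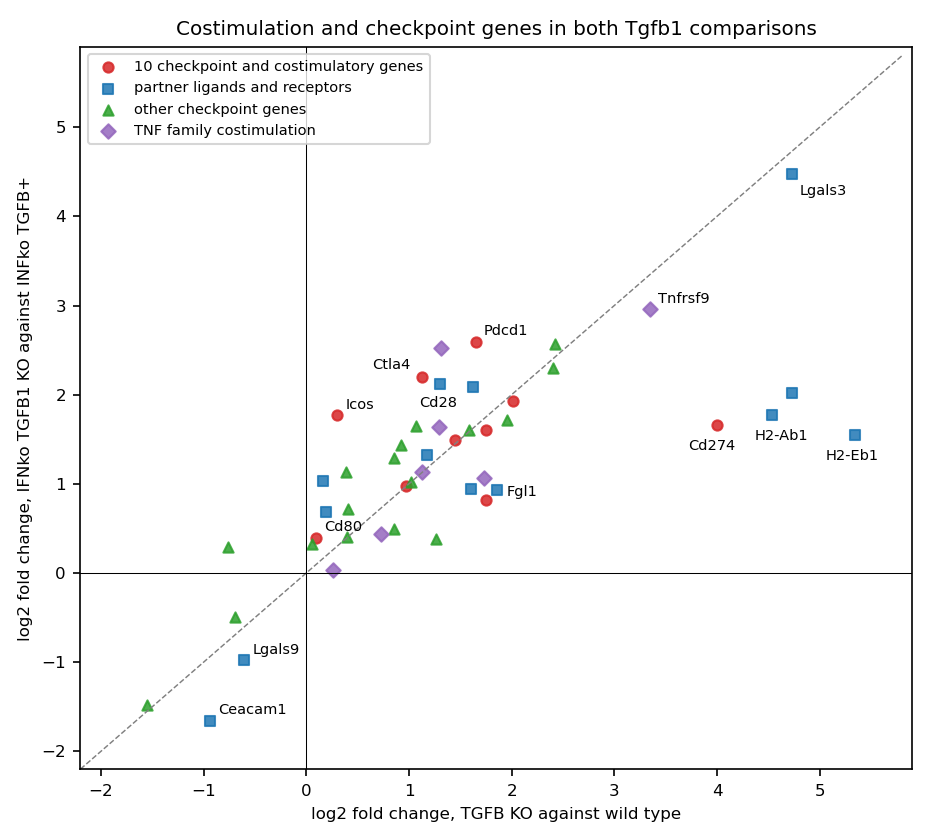
Log2 fold change in IFNko TGFB1 KO against INFko TGFB+ (vertical) over that in TGFB KO against wild type (horizontal) for the 10 genes, their partners, other checkpoint genes and TNF family costimulatory genes, with a dashed line of equal change. Cd274 (4.005 and 1.66) lies below the line with the MHC class II genes, and Icos (0.30 and 1.77) above it.

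Among related genes that were not members, more rose than fell. Of 17 tested genes of the other B7-CD28, CD226 and SLAM families, 8 rose and 2 fell in TGFB KO and 9 rose and 1 fell in IFNko TGFB1 KO against INFko TGFB+, with medians of 0.86 and 1.02, where 12.2% and 12.7% of all genes rose. Timd4, a TIM family receptor of Kupffer cells, rose by 2.41 ± 0.21 and 2.30 ± 0.21, and Cd48, a SLAM family ligand, by 2.43 ± 0.25 and 2.57 ± 0.25. Nectin3, an adhesion molecule of the nectin family, fell by 1.55 ± 0.32 and 1.48 ± 0.32 on the log2 scale. None of the 17 was called between the groups without Tgfb1.

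Costimulatory genes of the tumour necrosis factor family rose for 5 of 7 tested in each Tgfb1 comparison, where 12.2% and 12.7% of all genes rose. Tnfsf4, Tnfsf9, Cd70, Cd40lg, Tnfsf14 and Tnfrsf25 were below the filter and not tested. Tnfrsf9 (4-1BB), a receptor induced on activated T cells, rose by 3.35 ± 0.30 and 2.96 ± 0.30, and Cd27, a receptor of naive and memory T cells, by 1.31 ± 0.30 and 2.53 ± 0.30. Tnfrsf4 (OX40) was at 0.72 ± 0.44 and 0.44 ± 0.44 and was not called. In wild type and INFko TGFB+ the mean signals of Tnfrsf9 were only 20.0 and 8.59, and those of Cd27 18.1 and 6.44.

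Signalling genes downstream of the antigen receptor and CD28 rose for 12 of 20 tested in TGFB KO and for 14 of 20 in IFNko TGFB1 KO against INFko TGFB+, and none fell. The shares of all genes that rose were 12.2% and 12.7%. Lcp2, the adaptor SLP-76, rose by 2.75 ± 0.20 in each. Ptpn6, the phosphatase SHP-1, rose by 1.88 ± 0.16 and 1.18 ± 0.16. Ptpn22, a phosphatase that dampens antigen receptor signalling, rose by 2.92 ± 0.31 and 3.58 ± 0.31.

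Of 15 transcription factors of T cell activation and exhaustion, 4 rose in TGFB KO and 9 in IFNko TGFB1 KO against INFko TGFB+, and none fell. Of all genes 12.2% and 12.7% rose. Prdm1 (Blimp-1) rose by 2.09 ± 0.28 and 1.71 ± 0.28, and Batf by 2.08 ± 0.38 and 2.44 ± 0.38. Tbx21 (T-bet), a factor of T helper 1 cells, was at 1.01 ± 0.37 in TGFB KO and was not called (adjusted p = 0.0709), and rose by 1.72 ± 0.37 in the Ifng-deficient pair (adjusted p = 0.00594).

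Icos, Cd80 and Cd86 each have further probe sets, which were fitted over all 45037 probe sets that are no controls, an alternative chosen after seeing the data. In this larger family of tests the probe sets used above keep their log2 fold changes, and the calls of Pdcd1lg2 (adjusted p = 0.056) and Icos (0.11) between the groups without Tgfb1 and that of the Cd274 difference (0.0636) are lost. The other Icos probe sets gave log2 fold changes of 1.21 ± 0.29 (adjusted p = 0.0222) and 1.40 ± 0.42 (0.0644) in TGFB KO, where the used one gave 0.30, and of 1.32 ± 0.29 (0.0142) and 2.95 ± 0.42 (0.00129) in IFNko TGFB1 KO against INFko TGFB+. Of the 3 Icos probe sets, 1 was thus called in TGFB KO and all 3 in the Ifng-deficient pair. With the probe sets of a gene that passed the filter averaged, which left out the first of those other probe sets, Icos rose in TGFB KO by 0.85 (adjusted p = 0.00623).

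For Cd80, 1 further probe set gave 0.93 ± 0.27 (adjusted p = 0.0536) and 1.09 ± 0.27 (adjusted p = 0.0263) in the same comparisons. Another gave -0.29 ± 0.27 in both, at signals of 3.96 to 19.3, and the last gave -0.27 ± 0.56 and 0.71 ± 0.56. The second Cd86 probe set gave 1.63 ± 0.38 (adjusted p = 0.0213) and 1.12 ± 0.38 (adjusted p = 0.104).

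**Figure D5:**
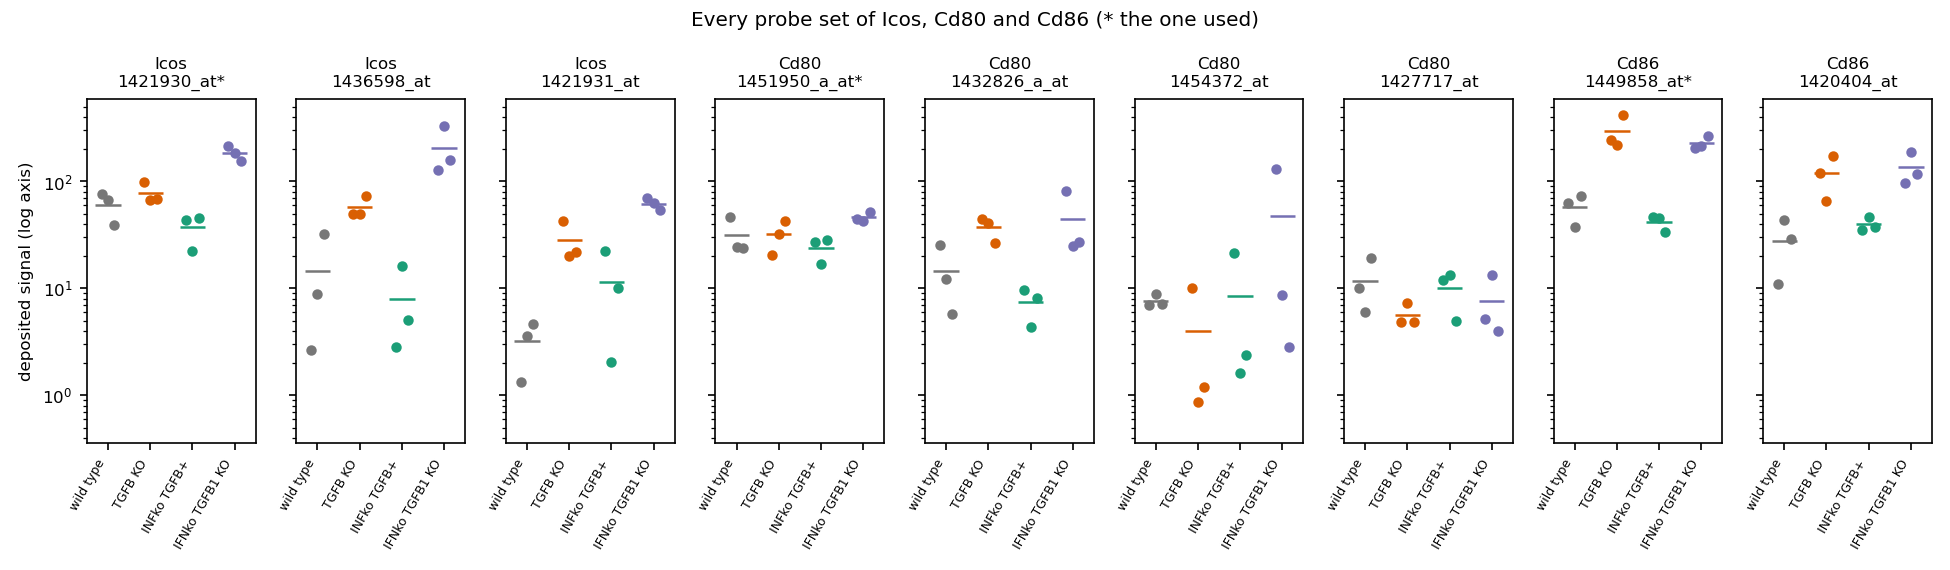
Deposited signal (log axis) of every probe set of Icos, Cd80 and Cd86 on the 12 arrays, by group, with points for arrays and a bar for each group's mean (n = 3), an asterisk marking the probe set used. All 3 Icos probe sets are highest in IFNko TGFB1 KO, and TGFB KO overlaps wild type for the used one only.

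The genes with the most similar profiles over the 12 arrays were ranked by the root mean square difference of mean-centred log2 values. The nearest to Cd274 were the MHC class II genes H2-Ab1 (0.407) and H2-Aa (0.498) with the Fc receptor gene Fcgr4 (0.410) between them, for a gene whose own standard deviation was 1.95. The nearest to Pdcd1 were Themis (0.271), a T cell signalling gene, then Lyz1 (0.415) and Cd27 (0.418). For Pdcd1lg2 they were Trim30d (0.303), Plekhm1 (0.335) and Trafd1 (0.344), and for Ctla4 Il1a (0.297), Samsn1 (0.320) and Gimap4 (0.339). Those of Lag3 were Atp8a1 (0.248), Ifi30 (0.271) and Abcg1 (0.283), and those of Havcr2 Ubash3b (0.281), Apobr (0.282) and Dock10 (0.288). Icos was nearest to Lsm3 (0.263), Ube2s (0.274) and Myh9 (0.275), and Cd80 to Bnip2 (0.146), Rae1 (0.162) and Polr2d (0.178). Cd86 was nearest to Mndal, Klf6 and Cd300c2 (each 0.276), and Btla to Slc12a4 (0.167), Prkch (0.191) and Bola2 (0.224). No member was among the 3 nearest of another, and the closest pair of members was Icos and Btla (0.453), next to Havcr2 and Btla (0.455). This measure is smaller for genes that vary little, and the standard deviations of Icos and Btla were 0.724 and 0.581. Ctla4 and Cd86, with standard deviations of 0.964 and 1.08, lay 0.462 apart.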

How the data were processed

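Liver RNA was hybridised to 1 array per mouse, with 3 mice in each of 4 groups. Per the labels' protocols, Trizol was used to extract total RNA, and a core facility carried out one-cycle biotin labelling and the array work. The deposited values are signal intensities, 1 per probe set, scaled by the authors so that every array has a trimmed mean of 150 (checked without the lowest and highest 2%). The signal algorithm is not given in the sources used here, detection calls were not analysed here, and the lowest deposited value is 0.07107. Of 45101 probe sets, 34958 carry 1 gene symbol, 932 several and 9211 none, and 64 are controls. Symbols were updated by gene identifier for 34754. The number of arrays limits the precision.

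Signals were quantile-normalized as log2(signal + 16). The fold changes of low genes are understated on this scale. Each gene was read by its probe set with the highest mean, and genes under the 40th percentile (5.25 on the log2 scale) were left out. limma 3.58.1 in R 4.3.3 fitted 4 group means over all 12 arrays (lmFit and eBayes, Benjamini-Hochberg over 12760 genes), and the scripts were tested on simulated data. Promoter words and figures were made with Python 3.11.15 and matplotlib 3.10.9. Groups came from the labels, and 1 INFko TGFB+ array without a number took the number left. The members and lists were chosen with earlier results of these data known. Named genes are the members, their binding partners, the smallest p-values of each list (up to 6 per Tgfb1 comparison, 4 for cell types), the targeted genes and the 3 nearest profiles. Alternatives were other scalings, pseudocounts and filters, averaged probe sets, only the compared groups, a replicate block, an intensity trend, each array left out and, added after seeing the data, the other probe sets of members.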

Additional observations from a re-analysis of the deposited data

Results flagged for a closer look

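The following results are given because the effect of Tgfb1 loss differed between the pair without Ifng and the pair with it, by limma's test of the difference itself (Benjamini-Hochberg over 12760 genes, n = 3 arrays per group). Cd274 differed by -2.34 (adjusted p = 0.0258), from effects of 4.005 with Ifng and 1.66 without. Its call was lost without wild type 3, TGFB KO 1, TGFB KO 3, INFko TGFB+ 1 or INFko TGFB+ 2. The MHC class II genes H2-Aa, H2-Ab1 and H2-Eb1 differed by -2.71 (adjusted p = 0.0157), -2.77 (0.00641) and -3.79 (0.00518), and the call of H2-Aa was lost without INFko TGFB+ 2 (0.0542).

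Among genes of interferon gamma signalling, the chemokine genes Cxcl9 and Cxcl10 differed by -4.50 (adjusted p = 0.000371) and -2.195 (0.00631). The GTPase genes Gbp2, Igtp and Irgm1 differed by -3.42 (0.000123), -3.72 (0.000123) and -3.10 (0.000122). Irf1 and Irf8 differed by -1.85 (0.0157) and -1.95 (0.00963), and the call of Irf1 was lost without INFko TGFB+ 1 (0.0542) or 2 (0.0537). The antigen-processing genes Psmb9 and Tap1 differed by -2.11 (0.0245) and -2.31 (0.047). The Psmb9 call was lost without wild type 2 (0.0656) or 3 (0.06), TGFB KO 1 (0.0702) or 2 (0.0711), or any of INFko TGFB+ 1 (0.0792), 2 (0.0735) and 3 (0.0616). The Tap1 call was lost without any array of wild type, TGFB KO or INFko TGFB+, with adjusted p of 0.0652 to 0.144, and without IFNko TGFB1 KO 3 (0.0614).

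Cd3g, a T cell marker, differed in the other direction, by 2.01 (adjusted p = 0.0416), and its call was lost without 9 of the 12 arrays left out in turn, with adjusted p of 0.0703 to 0.134.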

How the results depend on the processing

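Of 20 called results on members, 292 of 315 alternative values kept direction and call, 23 kept the direction and missed the threshold and 0 changed sign. Of 30 results not called, 470 of 505 alternative values kept direction and side, 5 passed the threshold and 30 changed sign. The cause was not tested for any change below. In the difference of the Tgfb1 effects the members called were 0 with the deposited scaling, 0 with a pseudocount of 1, 2 with a pseudocount of 64 and 2 with averaged probe sets, against 1. The genes called there were 57 with a pseudocount of 1, 211 with 64 and 173 with an intensity trend, against 111. In IFNko TGFB1 KO against TGFB KO, 1 member was called with a pseudocount of 1, against 3, and 213 genes with only the compared groups, against 684. With the filter at the 60th percentile 4 members were tested, and 3 rose in TGFB KO and 4 in the Ifng-deficient pair.

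Leaving out each array in turn gave 0 to 1 members and 46 to 160 genes called in the difference, the lowest without INFko TGFB+ 2. It gave 1 to 2 members and 326 to 730 genes in IFNko TGFB1 KO against TGFB KO, the lowest without TGFB KO 1, and 0 to 2 genes in INFko TGFB+ against wild type. With arrays left out, the difference ranged from -0.345 to 0.166 for Lag3, -0.284 to 0.264 for Havcr2, -0.271 to 0.191 for Cd86 and -0.199 to 0.261 for Btla. Cd80 ranged from -0.0740 to 0.297 in TGFB KO, from -0.00623 to 0.375 in IFNko TGFB1 KO against TGFB KO and from -0.207 to 0.0666 in INFko TGFB+ against wild type, where Pdcd1 ranged from -0.748 to 0.0571.

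Other changes of sign were in the difference for Lag3 (0.104) and Cd86 (0.0182) with the deposited scaling, Btla (-0.0233) with median centring, and Lag3 (0.352), Havcr2 (-0.627) and Btla (-0.0881) with a pseudocount of 1. With averaged probe sets Zap70 stood at -0.0154 in the Ifng-deficient pair and Cd86 at 0.125 in INFko TGFB+ against wild type. Single other probe sets gave 0.500 for Cd86 and 0.501 for Icos in INFko TGFB+ against wild type. For Cd80 they gave -0.289 and -0.267 in TGFB KO, -0.287 in the Ifng-deficient pair and -0.102 in IFNko TGFB1 KO against TGFB KO. Median centring moved the median of all genes to -0.154 in the Ifng-deficient pair, -0.252 in the difference, -0.137 in IFNko TGFB1 KO against TGFB KO and 0.102 in INFko TGFB+ against wild type. The members' medians were then 1.61, -0.0056, 0.215 and -0.318.

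With the replicate number as a block 8, 8, 1, 3 and 0 members were called in TGFB KO, the Ifng-deficient pair, the difference, IFNko TGFB1 KO against TGFB KO and INFko TGFB+ against wild type, and no member's call changed. The genes called were 3051, 3277, 84, 571 and 0. Deviations of same-numbered arrays correlated between -0.0767 and 0.343, the highest for wild type 3 with TGFB KO 3. Of 12 arrays 6 correlated best with one of their own number. These values do not settle whether the numbers mark pairs, and the main fit used no pairing. Dim probe sets limit what can be seen, since Foxp3 and Il2ra were below the filter.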
